A study of Rattus norvegicus with 8 samples.

Results

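The enzymes described here are 8 genes of the pentose phosphate pathway and of cytosolic NADPH supply, Pgls, Pgd, Rpia, Rpe, Tkt, Taldo1, Me1 and Idh1, out of 10266 genes measured in scrapings of rat distal colon mucosa. They were taken by gene symbol: 11 probe sets carried one of the 8 names as their single symbol, and the brightest probe set of each gene by mean over all arrays stands for it. The series held 4 samples of rats fed 10 g of quercetin, a plant flavonol, per kg of diet, and 4 samples of rats on the control diet, the RM3 [E] FG SQC breeder diet. Both groups were fed for 11 weeks, and 1 Affymetrix array was hybridised per sample. No genetic change is named for either group, and the labels used here do not state the strain, sex or age of the rats. A scraping mixes cell types, so fewer cells of a type and less RNA per cell cannot be told apart in any value below. Control array 2 correlated least with the rest, at 0.927 on average, where the quercetin arrays had 0.943 to 0.955 and the other controls 0.941 to 0.955, and the values of Pgd, Taldo1, Rpe and the dimmer Rpia probe set, which were lowest on it, are also given without it.

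The pentose phosphate pathway branches off glycolysis at glucose phosphate. Its oxidative branch makes NADPH, the electron donor for lipid synthesis and for the reduction of glutathione and thioredoxin, and its reversible non-oxidative branch makes ribose phosphate for nucleotides and returns sugar phosphates to glycolysis. Malic enzyme and cytosolic isocitrate dehydrogenase make NADPH outside the pathway, from malate and isocitrate. Several of these genes are known targets of NRF2, a transcription factor of the antioxidant response that binds the antioxidant response element.

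The signal of 7 of the 8 enzymes was on average higher in the quercetin group, and none of the 8 passed the test over all probe sets. Tkt stood out among them: all 4 quercetin arrays lay above all 4 control arrays. Pgd, Pgls and Me1 had log2 fold changes between 0.42 and 0.51 with groups that overlapped, Taldo1 and Rpia were under 0.20, and Rpe and Idh1 were near 0. The genes were chosen by their symbols with the log2 signals of quercetin against control arrays in view, so the differences are given as a description and the adjusted p-values beside them are no independent evidence. The test behind each value is limma on log2(signal + 16) with Benjamini-Hochberg adjustment over 18625 probe sets and a threshold of 0.05. It called 0 of the 8 enzymes, where it called 0.00974% of all genes (1 of 10266) and 0.0107% of all probe sets (2 of 18625).

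**Figure D1:**
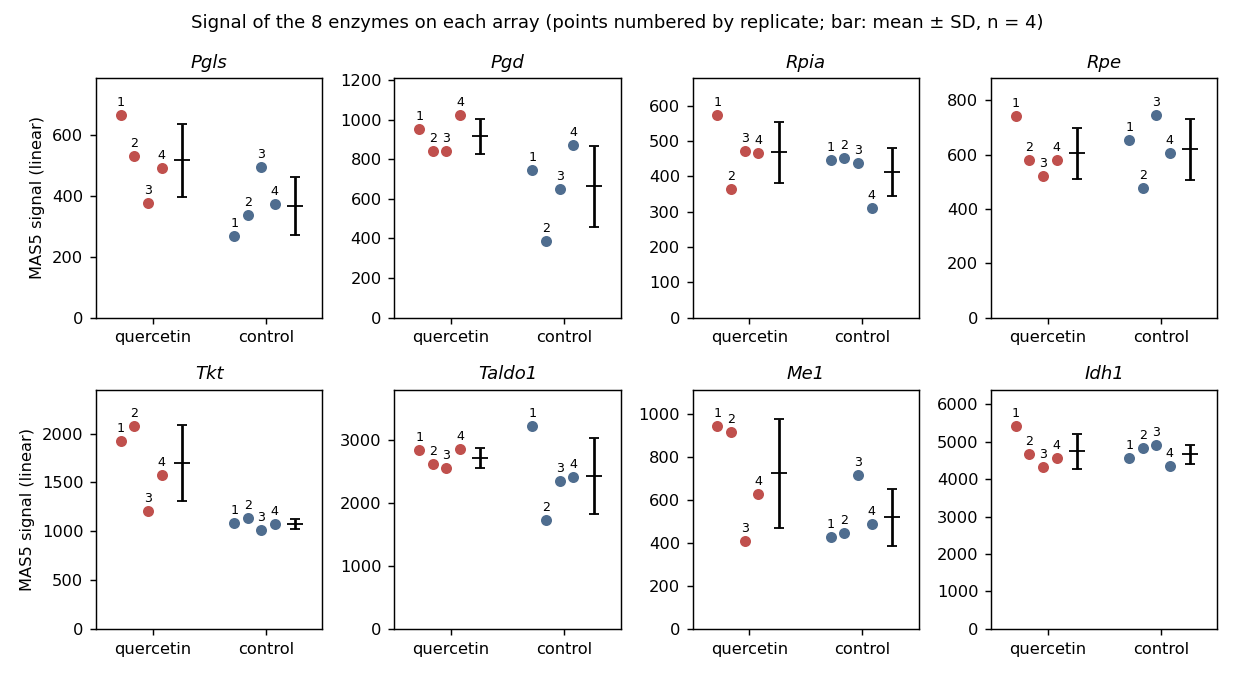
Linear MAS5 signal of each enzyme on each array, with 4 quercetin arrays at the left and 4 control arrays at the right of each panel, points numbered by replicate, and the bar giving mean ± SD. Tkt is the panel in which the groups do not overlap, control array 2 is low for Pgd, Taldo1 and Rpe, and quercetin array 3 lies lowest of its group in 7 of the 8 panels.

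The plot of signals by array shows the values behind these statements on a linear scale. MAS5 signal depends on the probes as well as on the transcript, so levels are compared between arrays and never between genes.

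The oxidative branch was measured through Pgls and Pgd. Pgls, the lactonase that opens the ring of phosphogluconolactone, had signals of 665, 531, 376 and 492 on quercetin arrays 1 to 4, against 266, 335, 493 and 373 on control arrays 1 to 4. Control array 3 lay above quercetin arrays 3 and 4, and quercetin arrays 1 and 2 were above every control array. The means were 516 ± 119 in quercetin and 367 ± 95.1 in control (SD, n = 4 each), a log2 fold change of 0.48 (SE 0.206, limma adjusted p = 0.431).

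Pgd, phosphogluconate dehydrogenase, makes NADPH and ribulose phosphate. Its signals were 952, 842, 842 and 1024 on quercetin arrays 1 to 4, against 745, 387, 652 and 871 on control arrays 1 to 4. The quercetin arrays were close together, and control array 4 lay among them. Control array 2 had less signal than any other array. The means were 915 ± 89.3 in quercetin and 664 ± 205 in control (SD, n = 4 each), a log2 fold change of 0.51 (SE 0.209, limma adjusted p = 0.412). Without control array 2 the value was 0.28, and without control array 4 it was 0.65. Another 4 probe sets list Pgd together with other genes and were not used.

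In the non-oxidative branch, Rpia, the isomerase that makes ribose phosphate, had signals of 573, 362, 471 and 465 in quercetin, against 444, 451, 438 and 309 in control. Quercetin array 2 lay below 3 control arrays, and control array 4 lay below the other controls, which were close together. The log2 fold change was 0.18 (SE 0.175, limma adjusted p = 0.758), and leaving out 1 array gave 0.05 without control array 4, 0.08 without quercetin array 1 and 0.29 without quercetin array 2. The dimmer Rpia probe set had 176, 95.5, 171 and 173 in quercetin, against 164, 35.0, 104 and 200.2 in control. Its log2 fold change was 0.42 (SE 0.377), and -0.01 without control array 2. The probe sets disagreed on 2 control arrays. Control array 2 had the lowest signal of the dimmer one and the highest control signal of the brighter one, and control array 4 had the highest of all 8 signals on the dimmer one and the lowest of all 8 on the brighter one.

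Rpe, the epimerase that makes xylulose phosphate, was the one enzyme with a lower quercetin mean. Its signals were 741, 580.2, 522 and 579 in quercetin, against 654, 476, 747 and 605 in control, and the quercetin range lay inside the control range. The log2 fold change was -0.03 (SE 0.165), with a 95% interval of -0.38 to 0.33, and its sign turned under median centring and when control array 1, control array 3 or quercetin array 3 was left out. Without control array 2 it was -0.15.

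Tkt, transketolase, moves carbon pairs between sugar phosphates with thiamine as cofactor. Its signals were 1929.6, 2076, 1211 and 1574 on quercetin arrays 1 to 4, against 1081, 1136, 1017 and 1073 on control arrays 1 to 4. No quercetin array reached down to the control range, although quercetin array 3 came close to it. The means were 1698 ± 387 in quercetin and 1077 ± 48.7 in control (SD, n = 4 each). The log2 fold change was 0.62 (SE 0.162, 95% interval 0.27 to 0.97), or 1.54-fold on the transformed scale, and the limma adjusted p was 0.273. By p it was number 50 of the 10266 genes. The quercetin arrays were all above the control arrays in 3.77% of all genes. Leaving out 1 array at a time gave log2 fold changes of 0.51 to 0.77, the higher one without quercetin array 3.

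Taldo1, transaldolase, works beside transketolase and links the pathway back to glycolysis. It had signals of 2829.8, 2616, 2547 and 2853 in quercetin, against 3213, 1728, 2338 and 2415 in control. The quercetin arrays spanned a narrow range inside that of the controls, with control array 1 above and the other 3 controls below all of them. The log2 fold change was 0.19 (SE 0.165, limma adjusted p = 0.723). It was 0.04 without control array 2 and 0.34 without control array 1.

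These partner enzymes of the non-oxidative branch had opposite patterns of spread. The SD of the log2 values of Tkt was 0.35 among quercetin arrays and 0.06 among control arrays, and that of Taldo1 was 0.08 among quercetin arrays and 0.36 among control arrays. The root mean square difference between their profiles, each centred on its own mean over the 8 arrays, was 0.38 on the log2 scale.

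Me1, the cytosolic malic enzyme, turns malate into pyruvate and makes NADPH. Its brighter probe set had 941, 913, 408 and 626 in quercetin, against 426, 445, 714 and 487 in control. Quercetin arrays 1 and 2 were above every control array, while quercetin array 3 had the lowest signal of all 8. The means were 722 ± 253 in quercetin and 518 ± 133 in control (SD, n = 4 each), a log2 fold change of 0.42 (SE 0.249, limma adjusted p = 0.582). Without quercetin array 3 it was 0.67, and without quercetin array 1 it was 0.27.

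The dimmer Me1 probe set had 420.4, 252, 251 and 368 in quercetin, against 281, 217, 348 and 212 in control, and a log2 fold change of 0.27 (SE 0.212). Both Me1 probe sets were highest on quercetin array 1, lowest within quercetin on array 3 and highest within control on array 3. They differed on quercetin array 2, which lay above all control arrays on the brighter probe set and within their range on the dimmer one.

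Idh1, the cytosolic isocitrate dehydrogenase, makes NADPH from isocitrate. Its signals were 5415, 4677, 4334 and 4557 in quercetin, against 4571, 4829, 4904 and 4339.9 in control. The control arrays lay within the quercetin range. The log2 fold change was 0.02 (SE 0.118), with a 95% interval of -0.23 to 0.28, the narrowest of the 8 enzymes. Its sign turned without control array 4 and without quercetin array 1. The other Idh1 probe set had signals of 12.1 to 45.8 in quercetin and 26.6 to 28.3 in control, below the filter on dim probe sets, and was not tested.

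**Figure D2:**
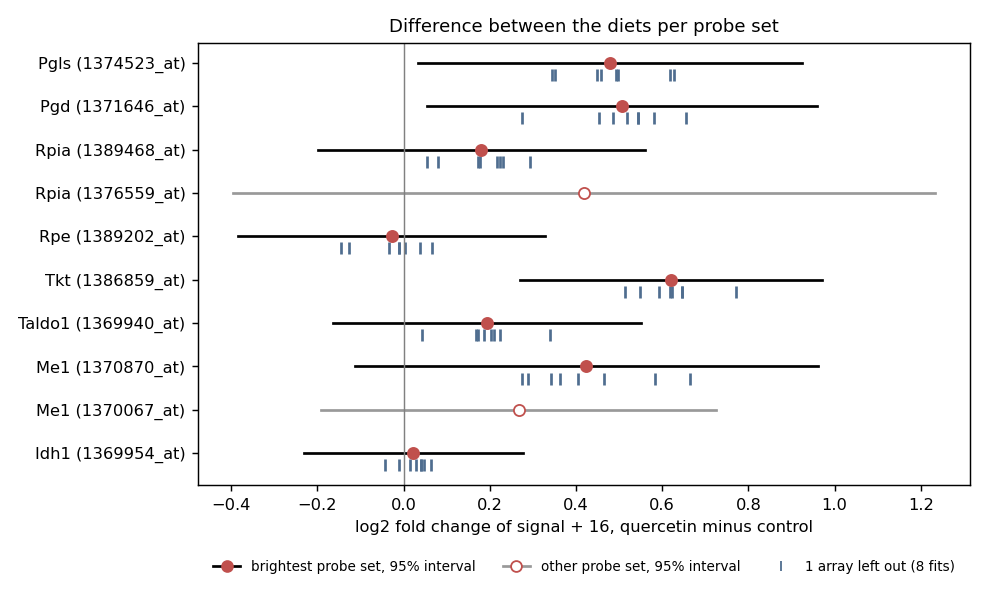
Log2 fold change of signal + 16, quercetin minus control, for the 10 tested probe sets of the 8 enzymes, with the 95% interval of the limma fit and, as ticks, the values when 1 array is left out. Tkt, at 0.62, lies furthest from 0, and its ticks run from 0.51 to 0.77, while the ticks of Rpe and Idh1 fall on both sides of 0.

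The plot of differences per probe set places all estimates on one scale. The 95% intervals of Tkt, Pgd and Pgls lie above 0 before any adjustment, so 3 of the 8 enzymes had an unadjusted p under 0.05 with a higher quercetin mean, where 6.06% of all genes did. Leaving out single arrays moved that count to between 1 and 4. It was 1 without control array 2, without quercetin array 1 and without quercetin array 4. The median log2 fold change was 0.31 over the 8 enzymes and 0.04 over all genes tested, and 55.9% of all genes had a value above 0.

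**Figure D3:**
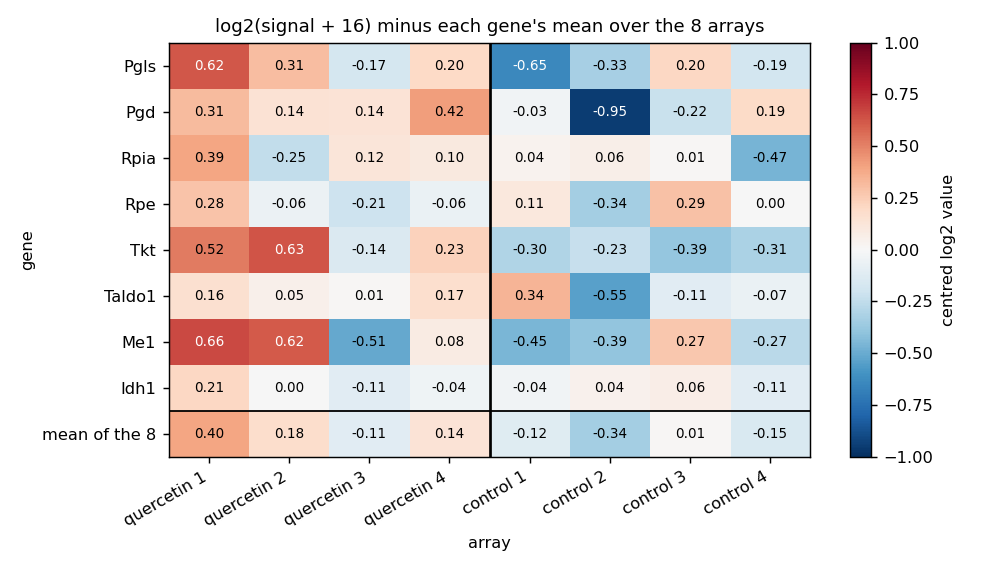
Log2(signal + 16) of each enzyme minus its own mean over the 8 arrays, with the 4 quercetin arrays left of the 4 control arrays and the mean of the 8 enzymes in the last line. Quercetin array 1 is above the mean for all 8 enzymes, quercetin array 3 resembles the controls for Tkt, Pgls and Me1, and Pgd on control array 2 is the lowest cell at -0.95.

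The map of centred values shows that the arrays of a group did not behave alike. Averaged over the 8 enzymes, the centred values were 0.40, 0.18, -0.11 and 0.14 on quercetin arrays 1 to 4, against -0.12, -0.34, 0.01 and -0.15 on control arrays 1 to 4. Quercetin array 3 fell within the control range, so the groups overlapped. That array was the lowest of the quercetin group for 7 of the 8 enzymes, Rpia being the exception. Quercetin array 1 was the highest of its group for 5.

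Among pairs of enzymes, the profiles of Idh1 and Rpe were closest, with a root mean square difference of 0.18 on the log2 scale. Pgls and Me1 followed at 0.19. Tkt was nearest to Pgls (0.28) and Me1 (0.29), and Taldo1 to Rpe (0.22) and Pgd (0.25). Unscaled differences favour pairs that vary little, as Idh1 does.

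Over all genes, those most like Tkt by the same measure were Plpp3, a lipid phosphate phosphatase (0.11), Tapbp, the tapasin of MHC class I loading (0.14), and Bud23, a ribosomal RNA methyltransferase (0.14), against a median difference of 0.45 over 10265 genes. Those most like Pgd were Rab5b, an endosomal GTPase (0.10), Pef1, a calcium-binding protein (0.11), and Heatr3 (0.11), against a median of 0.48. Heatr3 was dim, at 37.2 to 44.3 in quercetin and 10.9 to 40.3 in control. These signals are close to the level of the filter on dim probe sets, 29.4, and control array 2 lay under it. All comparisons of profiles rest on the same 8 arrays. Plpp3 had 363, 323, 237 and 308 in quercetin, against 198, 214, 207 and 193 in control, with quercetin array 3 again the lowest of its group. Rab5b had 367 on control array 2, against 683 to 751 on the other controls, which is the array on which Pgd was low.

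Measures of the arrays themselves moved with some of these values. Control array 2 had the highest GAPDH 3' to 5' signal ratio, 3.79, where the quercetin arrays had 1.91 to 2.36 and the other controls 1.58 to 2.15. The beta-actin ratio was 7.18, 8.90, 9.12 and 6.79 on quercetin arrays 1 to 4, against 8.65, 21.4, 10.2 and 12.4 on control arrays 1 to 4. Control arrays 2, 3 and 4 lay above every quercetin array in it, and the part of this difference in the enzymes' values was not tested. Such a ratio rises when RNA is shortened or copied incompletely. With the GAPDH ratio as a covariate the log2 fold changes of Pgd and Taldo1 were 0.43 and 0.13, and that of Tkt was 0.62. Without control array 2, Tkt had 0.65. With control arrays 1 and 2 left out together, the log2 fold changes were 0.66 for Tkt, 0.27 for Pgd, 0.23 for Pgls and 0.21 for Me1.

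Proliferation genes, 24 of 25 measured, had mean centred log2 values of 0.61, 0.39, 0.04 and 0.06 on quercetin arrays 1 to 4. On control arrays 1 to 4 the values were -1.03, 0.08, 0.13 and -0.28. Quercetin array 1 and control array 1 were thus the extremes, and control arrays 2 and 3 lay above quercetin arrays 3 and 4. The summed signal of these genes was 7480 to 11799 in quercetin and 3418 to 8583 in control. All 24 were higher in quercetin on average, where 55.9% of all genes were. In limma 0 passed the adjusted threshold, and 6 were higher at an unadjusted p under 0.05, where 6.06% of all genes were. The genes of smallest p were Foxm1 (1.26, and 0.29 on its other probe set) and Cdk1 (0.92). Foxm1 had 73.3 ± 15.7 in quercetin and 23.9 ± 17.5 in control (SD, n = 4 each). Its control mean lay under the signal level of the filter, 29.4, so it was tested only through its quercetin arrays. Quercetin array 1 was also highest for the 8 enzymes together, and control array 1 was lowest for Pgls. The part of proliferation in the enzymes' values was not tested. Without control array 1, Pgls had a log2 fold change of 0.34 and Tkt 0.62.

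The 250 bases upstream of the start that RefSeq lists for each gene (assembly GRCr8) were found for 7 of the 8 enzymes. They are shown for Tkt, which had the largest difference, and for Me1 and Idh1, which hold the core of the antioxidant response element. The windows are chr16:5729982-5730231 on the plus strand for Tkt, chr8:96540245-96540494 on the minus strand for Me1 and chr9:74049475-74049724 on the minus strand for Idh1. Each is written 5′ to 3′ on the strand of the gene and ends at the base before the start, and capitals mark the match.
Tkt: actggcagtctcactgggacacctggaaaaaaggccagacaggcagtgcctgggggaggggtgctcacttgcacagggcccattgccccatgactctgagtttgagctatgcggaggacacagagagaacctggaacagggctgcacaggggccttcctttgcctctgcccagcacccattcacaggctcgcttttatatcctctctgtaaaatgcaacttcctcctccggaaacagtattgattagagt
Me1: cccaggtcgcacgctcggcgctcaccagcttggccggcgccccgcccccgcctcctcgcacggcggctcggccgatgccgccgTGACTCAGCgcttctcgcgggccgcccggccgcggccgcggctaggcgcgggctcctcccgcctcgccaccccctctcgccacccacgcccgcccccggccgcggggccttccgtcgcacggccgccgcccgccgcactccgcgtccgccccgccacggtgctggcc
Idh1: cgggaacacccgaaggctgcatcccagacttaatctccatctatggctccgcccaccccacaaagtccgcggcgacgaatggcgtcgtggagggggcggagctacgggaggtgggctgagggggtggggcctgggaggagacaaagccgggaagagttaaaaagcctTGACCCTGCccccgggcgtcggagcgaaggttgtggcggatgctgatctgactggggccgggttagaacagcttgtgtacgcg

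The motifs searched on both strands were TGACNNNGC, the core of the antioxidant response element, and CACGTG, the E-box, and matches of the 2 motifs may overlap each other at their ends. The first was found in 2 of 7 windows, in Me1 at position -167 and in Idh1 at position -83 from the start, and in 10.1% of 33465 RefSeq windows of this length. The second was found in 0 of 7 windows and in 5.59% of all windows. Me1 and Idh1 had log2 fold changes of 0.42 and 0.02, and Tkt, whose window holds neither motif, had 0.62. A match is a description of letters, and its absence says only that these letters are not in this window. The starts of Tkt and Idh1 lie inside the span that RefSeq gives for the gene, so other windows exist for them.

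**Figure D4:**
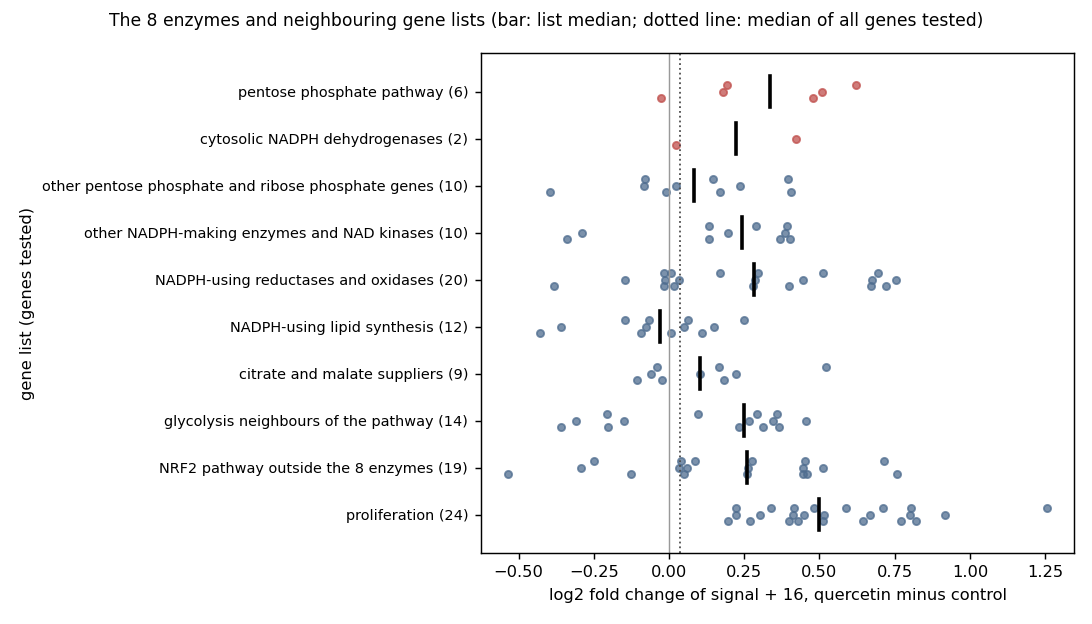
Log2 fold change of signal + 16, quercetin minus control, for each tested gene (points) of the 8 enzymes in red and of neighbouring lists in blue, with list medians as bars and the median of all genes as a dotted line. The list labelled NADPH-using reductases and oxidases has a median of 0.28, and that labelled NADPH-using lipid synthesis has -0.03. Some genes of both lists do not use NADPH themselves.

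The plot of neighbouring lists sets the 8 enzymes beside the genes they exchange substrates with. In each of these lists 0 genes passed the adjusted threshold. Counts at an unadjusted p under 0.05 stand against 6.06% of all genes higher and 3.33% lower. Of 10 other genes of pentose and ribose phosphate metabolism, 6 were higher and 4 lower (median 0.08), with 0 higher and 1 lower at that p. The lower one was Prpsap1, an associate of phosphoribosyl pyrophosphate synthetase, at 235 ± 56.1 in quercetin and 310 ± 15.99 in control (SD, n = 4 each; log2 fold change -0.40). H6pd, which runs the oxidative steps in the endoplasmic reticulum, had 0.40 (limma adjusted p = 0.65).

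Among 10 genes listed as other NADPH-making enzymes and NAD kinases, 8 were higher (median 0.24), 1 of them at an unadjusted p under 0.05. It was Aldh1l1, a folate enzyme that makes NADPH in the cytosol, with 610.0 ± 77.3 in quercetin and 462 ± 44.2 in control (SD, n = 4 each; log2 fold change 0.38). Glud1, glutamate dehydrogenase, had 0.39, and 0.45 on its other probe set. Some genes counted in this list, such as Me2 and Mthfd2, also work with NAD. Me2 had 0.13, and -0.69 on its other probe set.

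Of 20 reductases and oxidases, most of which use NADPH, 15 were higher (median 0.28), 3 at an unadjusted p under 0.05. Those with the smallest p were Blvrb, biliverdin reductase B, with a log2 fold change of 0.72 (SE 0.238), and Cbr3, a carbonyl reductase, with 0.67 (SE 0.230). The other one, Gsr, glutathione reductase, had 107 ± 29.2 in quercetin and 60.7 ± 12.9 in control (SD, n = 4 each) and groups that did not overlap. It was chosen after its values were seen. Sord, the highest of the list at 0.75, is a dehydrogenase that works with NAD rather than NADPH. In lipid synthesis, the other large use of NADPH, 6 of 12 genes were higher and 6 lower (median -0.03). Some of the 12, such as Elovl5, Elovl6 and Lss, catalyse steps that do not use NADPH themselves. In this list 1 gene was lower at an unadjusted p under 0.05. That was Cyp51, the lanosterol demethylase of cholesterol synthesis, at 4326 ± 633 in quercetin and 5539.7 ± 716 in control (SD, n = 4 each; log2 fold change -0.36). Sqle, squalene epoxidase, had -0.43.

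Genes around citrate and malate, labelled suppliers in the plot, include users such as Acly. Of them, 5 of 9 were higher (median 0.10), 1 at an unadjusted p under 0.05. Slc25a10, the dicarboxylate carrier of mitochondria, had 0.52 (SE 0.200), with 0.13 on its other probe set, and Mdh2, mitochondrial malate dehydrogenase, had 0.22. Glycolysis genes next to the pathway had 9 of 14 higher (median 0.25), with 3 higher and 1 lower at an unadjusted p under 0.05. Pfkl, the liver-type phosphofructokinase, had 0.45 and Gpi, which makes the fructose phosphate that the non-oxidative branch also feeds, had 0.35. Genes of the NRF2 pathway outside the 8 enzymes had 15 of 19 higher (median 0.26), with 6 higher and 1 lower at an unadjusted p under 0.05. Their leading members were the conjugate pump Abcc3 (0.76) and catalase, Cat (0.72).

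Markers of the labelled tissue were detected. All 23 colon epithelium markers with a probe set passed the filter on dim probe sets, as did 8 of 8 goblet cell markers, among them the mucin Muc2 at 23127 ± 2871 in quercetin and 27384 ± 8184 in control (SD, n = 4 each). Of the other cell types, markers above the filter numbered 10 of 15 for smooth muscle, 7 of 11 for adipocytes, 6 of 14 for macrophages and dendritic cells, 4 of 7 for B and plasma cells, 4 of 12 for T and NK cells, 3 of 12 for fibroblasts, 1 of 5 for neutrophils and 2 of 4 for red blood cells. The smooth muscle markers Actg2, Tagln, Cnn1, Myl9 and Lmod1 were below the filter, while Acta2, Des and Myh11 were above it. These counts do not measure how much of a cell type a scraping held. Of the 68 genes of the 10 marker lists that were tested, 0 passed the adjusted threshold in limma, and 5 higher and 2 lower had an unadjusted p under 0.05. Of all genes, 6.06% were higher and 3.33% lower at that p.

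Adipocytes are known for high Me1, and their markers are given for that reason. The summed signal of the 7 measured ones was 710.4 to 1172 in quercetin and 718 to 916 in control, highest on quercetin array 1, where Me1 was highest too. Such a sum is led by its brightest probe sets. Pparg was the brightest, at 363 ± 115 in quercetin and 323 ± 110 in control (SD, n = 4 each). Cidec came next, at 191 ± 32.5 in quercetin and 209 ± 14.6 in control. Of the 7 measured markers, 4 were higher and 3 lower (median 0.17). Fabp4, a fatty acid carrier of adipocytes and capillaries, had 80.8 ± 63.9 in quercetin and 14.2 ± 12.7 in control (SD, n = 4 each; log2 fold change 1.54, limma adjusted p = 0.3), and Plin4 had 0.63. The control mean of Fabp4 lay under the signal level of the filter, 29.4, so Fabp4 was tested only through its quercetin arrays. The lower ones were Cidec (-0.13), Lipe (-0.17, and 0.42 on its other probe set) and Adrb3 (-0.16). Of the defining markers, Adipoq passed the filter, with 76.0 ± 33.9 in quercetin and 54.0 ± 24.3 in control (SD, n = 4 each; log2 fold change 0.41), and was named after its values were seen. Lep, Plin1, Cfd and Lpl were below the filter, and no marker was at 0. The part of adipocytes in the values of Me1 was not tested.

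In the remaining marker lists the genes of smallest p are given with their log2 fold changes. Counts of higher genes stand against 55.9% of all genes. Colon epithelium had 14 of 23 markers higher (median 0.04), with Slc9a3 at 0.72 and Fabp1 at 2.50, and goblet cells had 5 of 8 higher (median 0.09), with Spink4 at 1.37 and Muc2 at -0.21. Smooth muscle had 7 of 10 higher (median 0.12), although the genes of smallest p, Tpm1 (-0.32) and Mylk (-0.42), were lower. Other probe sets of Tpm1 ran from -1.41 to 0.35, and that of Mylk had 0.21. Macrophages and dendritic cells had 4 of 6 higher (median 0.03), with Lyz2 at 0.57 and Csf1r at 0.67. B and plasma cells had 1 of 4 higher (median -0.10), with Blnk at -0.40 and Cd22 at 0.27. Jchain, among the lower ones, had -0.15, and 0.97 on its other probe set. The markers below the filter, Cd79b (0.45), Ms4a1 (1.26) and Pou2af1 (0.29), were higher. The count of tested genes therefore gives no direction for these cells. T and NK cells had 3 of 4 higher (median 0.23), with Lck at 0.28 and Gzmb at 0.43 (-0.34 on its other probe set). Gzmb had 44.7 ± 26.9 in quercetin and 28.1 ± 18.6 in control (SD, n = 4 each). Its control mean lay under the signal level of the filter, 29.4, so Gzmb was tested only through its quercetin arrays. The 1 neutrophil marker tested, S100a9, had 0.31. Red blood cells had 1 of 2 higher, with Hbb at -0.66 and Slc4a1 at 0.05 (0.37 on its other probe set). Fibroblast genes had 2 of 3 higher, with Col3a1 at 0.22 and Fbln1 at 0.13 (0.69 on its other probe set). The lower one, Col1a1, had -0.14, and 0.71 on its other probe set. The control mean of Col3a1, 28.5, also lay under the level of the filter, so Col3a1 was tested only through its quercetin arrays.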

How the data were processed

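The authors deposited a linear intensity for each probe set on each array, computed with MAS5 per the submitters' processing notes, and the labels name no further step. The mean signal with both tails trimmed was 200.1 on every array. Such scaling would hide a shift shared by most transcripts.

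Groups came from the sample titles, which do not say that each array is a separate rat, so a p-value reflects the spread among samples, which may be technical. After removing 57 array controls from the 31099 probe sets, the upper 60% by mean were tested, which were 18625 with a mean log2(signal + 16) of at least 5.504. The pseudocount of 16 understates changes of dim probe sets. The diets were compared with limma 3.58.1 (R 4.3.3), using lmFit and a trended eBayes, two-sided tests and Benjamini-Hochberg adjustment. Precision is limited by having 4 arrays a group, and the median standard error was 0.222. On simulated data with the spread of these 18625 probe sets, 3.2%, 39.4%, 68.2% and 83.2% of changes of 0.5, 1, 1.5 and 2 (log2) were recovered, and 4.62% of calls were false. The simulated noise was normal and independent between probe sets and arrays, with 200 probe sets changed per run. Variation shared by the probe sets of an array was not simulated, so these rates may differ for the real arrays.

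Symbols came from the platform annotation, and those of all 8 enzymes matched RefSeq (GRCr8) by Entrez identifier. Upstream sequences are RefSeq's. The enzymes, the 18 other gene lists and the tests were chosen with earlier results of these data known. The naming rule took all 8 enzymes, the 2 tested genes of smallest p in each other list, and the 3 genes nearest in profile to the 2 enzymes of smallest p. The alternatives changed the pseudocount (1 or 64), the scaling (quantile or median), the filter (none or the upper 40%), the weights of arrays, the eBayes trend, the summary per gene, a block for replicate number, the GAPDH ratio as covariate, and which arrays were left out.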

Additional observations from a re-analysis of the deposited data

Results flagged for a closer look

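In 58 sets of 4 arrays of a diet (for each enzyme, its other probe sets and the list means), a single array lay far outside the rest 4 times, and about 2.9 such cases arise by chance. The number in brackets is its distance to the next array divided by the range of the set. Rpia was low on control array 4 (0.92), and the dimmer Rpia probe set was low on quercetin array 2 (0.95). The mean of Me1 and Idh1 was high on control array 3 (0.832). The mean of the list labelled other NADPH-making enzymes and NAD kinases was low on quercetin array 2 (0.895).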

How the results depend on the processing

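Across 21 alternative settings, 162 of 168 enzyme values kept their sign and stayed short of the adjusted threshold. The other 6 turned sign: Rpe was 0.0221 with median centring and 0.00276, 0.0651 and 0.0377 without control array 1, control array 3 and quercetin array 3, and Idh1 was -0.0112 without control array 4 and -0.0424 without quercetin array 1. Over all fits with 1 array left out, Rpe ran from -0.146 to 0.0651 and Idh1 from -0.0424 to 0.0643. The median of the 8 enzymes ran from 0.22 to 0.38 and never moved by more than the spread between replicates, 0.18. The adjusted p of Tkt ran from 0.148 (GAPDH ratio as covariate) to 0.594 (control arrays 1 and 2 left out together).

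The count of enzymes at an unadjusted p under 0.05, 3 with the settings of the report, was 1 with array weights, with eBayes without the trend and with control arrays 1 and 2 left out together, and 1 to 4 when single arrays were left out. The count of probe sets past the adjusted threshold, 2, was 1 with quantile normalisation, median centring, no filter, 1 or the mean of the probe sets per gene, the replicate block and an untrended eBayes, 0 with control arrays 1 and 2 left out together, 3 with a pseudocount of 64, and 1 to 2 when single arrays were left out. The fits with fewer arrays, or with 1 value per gene, have less data by construction; for the others the cause was not tested. Replicate numbers in the titles did not pair the samples: deviations of same-numbered samples correlated at -0.02, 0.16, -0.15 and 0.14, and 1 of 4 quercetin arrays matched its own number best. With the replicate block 2 enzymes had an unadjusted p under 0.05, and Tkt had a limma adjusted p of 0.184.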
